A study of Mus musculus with 4 samples.

Results

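The transcripts described here were called well above background in CpG ODN-stimulated macrophages at 4 h and were not so called before stimulation or at 16 h. They were measured in RAW264.7 cells, a mouse macrophage cell line, treated with 1 µM ODN1826, a synthetic oligonucleotide with CpG motifs, and harvested at 0, 4, 8 or 16 h. The 0 h cells were the unstimulated control, and RNA of each time point was labelled with Cy3 and hybridized to 1 array, so 4 arrays were compared and no difference has a replicate. The arrays carry 97836 probes other than controls, and the share of them with all spots well above background lay between 70.9% and 73.3%. A probe was taken when all its spots were marked well above background by the scanner software at 4 h, none was so marked at 0 h or 16 h, and its level at 4 h exceeded that at 0 h by more than 2 on the log2 scale, that is 4-fold. The level is the mean log2 intensity of the spots of the probe minus the 75th percentile of the array. Curated noncoding transcripts of RefSeq (accessions with NR_) were left out, and of the 96963 probes remaining, 206 met these conditions. Of these, 141 were lncRNA probes and 65 were mRNA probes, which are those with Agilent catalogue numbers. The probes were thus chosen by their measured values on the 0 h, 4 h and 16 h arrays, which are given as a description, and the 8 h array was not used in the choice. A lower signal from fewer cells with a transcript and from less of it per cell cannot be told apart in these RNA pools.

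TLR9 recognizes unmethylated CpG DNA in endosomes and signals through MyD88 to NF-κB and AP-1. The genes that answer first, among them cytokines, chemokines and transcription factors, are often transcribed within the first hours, and many of their transcripts are unstable and lost again once transcription stops. lncRNAs are transcripts without protein-coding capacity, and in macrophages several lie next to inducible inflammatory genes. No gene names are given for the mRNA probes in the sources used here, so neither these mRNAs nor the macrophage markers of the cells could be examined by name.

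Of the lncRNA probes detected at 4 h and not at 0 h or 16 h, 62 carried NONCODE identifiers, 47 were RIKEN clones, 31 were predicted RefSeq transcripts (XR_) and 1 was an ultraconserved region. A RefSeq gene could be given to 12 of them, 9 by accession and 3 by the name of the RIKEN clone, and they belong to 11 genes. The gene of highest level at 4 h was Gm32650, whose span in RefSeq GRCm38.p6 overlaps Ccl5, a chemokine that attracts T cells and monocytes, and lies beside Ccl9, another chemokine gene. Gm34571 was the single gene met by more than 1 probe. It overlaps Bpi, which encodes a protein that binds bacterial lipopolysaccharide, and lies next to Lbp, the lipopolysaccharide-binding protein of serum. Its promoter lies on the minus strand and that of Bpi on the plus strand. The other predicted genes were Gm29897 beside Urb2, Gm33481 beside Ifng, the gene of interferon-γ, Gm40128, Gm34450 beside Agfg1, Gm42338, which overlaps Fhad1, and Gm41393 beside Pced1b. The 3 RIKEN clones with a gene matched Fgf18, Abca12 and 4933424G06Rik, which are annotated as protein-coding. The class of a probe was set by its name alone, so these clones stay among the lncRNA probes. The probes were set beside 7 lists of genes of the CpG response and the cell cycle. Of the 12 probes, 1, that of Gm32650, had a listed gene, as an overlapping or flanking neighbour. Over all 5030 lncRNA probes with a gene, 162, or 3.22%, had a listed gene as such a neighbour or as their own gene.

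The start regions of 3 of these genes are shown, those of the brightest gene and of the gene with more than 1 probe, and one that holds a motif of the CpG response. Each is 300 bases of RefSeq GRCm38.p6, with 250 before and 50 after the annotated start, and capitals mark a motif match. The window of Gm32650 is chr11:83512163-83512462 on the plus strand, that of Gm34571 is chr2:158258930-158259229 on the minus strand, and that of Gm34450 is chr1:82825287-82825586 on the plus strand, 1 of 3 windows listed for the gene.
Gm32650: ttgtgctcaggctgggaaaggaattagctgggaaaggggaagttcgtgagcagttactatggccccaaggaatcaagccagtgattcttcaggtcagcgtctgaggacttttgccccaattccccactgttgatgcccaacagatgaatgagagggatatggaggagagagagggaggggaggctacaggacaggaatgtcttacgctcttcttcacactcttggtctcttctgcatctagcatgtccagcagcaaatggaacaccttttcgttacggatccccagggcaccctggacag
Gm34571: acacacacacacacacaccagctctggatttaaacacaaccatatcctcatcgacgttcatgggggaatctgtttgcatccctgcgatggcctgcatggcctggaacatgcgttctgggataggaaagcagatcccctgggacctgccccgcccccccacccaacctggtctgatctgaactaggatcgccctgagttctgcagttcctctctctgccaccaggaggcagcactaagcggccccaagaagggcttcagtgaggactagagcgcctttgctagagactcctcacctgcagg
Gm34450: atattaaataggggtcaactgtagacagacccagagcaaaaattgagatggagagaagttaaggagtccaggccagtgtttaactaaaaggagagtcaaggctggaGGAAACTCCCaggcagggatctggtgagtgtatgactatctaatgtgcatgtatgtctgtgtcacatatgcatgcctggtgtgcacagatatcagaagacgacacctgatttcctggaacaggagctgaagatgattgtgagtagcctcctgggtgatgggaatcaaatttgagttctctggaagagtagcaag
Both strands were searched for AP-1 (TGANTCA), CRE (TGACGTCA), NF-κB (GGG, any 2 bases, then TTTCC), ISRE (GAAA, any 2 bases, then GAAA), PU.1 (GAGGAAGT) and TATAAA. In the 13 windows listed for 10 of the 11 genes, the only match was the NF-κB motif of Gm34450, at bases 107 to 116 of the window shown and on its minus strand. Of all 32851 RefSeq promoter windows of this length, 1.63% hold the NF-κB motif, 7.81% AP-1, 1.79% CRE, 3.44% ISRE, 3.20% PU.1 and 13.6% TATAAA. The absence of a match says only that these letters are not in the window.

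The probe of Gm32650 (XR_880082.1) has 2 spots. They had intensities of 2.68 and 2.80 before stimulation, 155 and 128 after 4 h, 68.6 and 56.2 after 8 h, and 10.9 and 9.10 after 16 h. The spots agreed on every array, and the signal at 8 h was below that at 4 h and still well above background. In order of time its levels on the log2 scale were -7.60, -1.84, -2.99 and -5.46, with a scanner error of 0.10 for the 4 h level and 1.03 for the 0 h level. A level not well above background is only a limit. Folds were therefore taken against the higher of the probe's own level and the lowest level well above background on that array. Such folds are nominal limits, since a probe can lack the call above that lowest level. NONMMUT039806 lacked it at 0 h with an intensity of 14.1, where the lowest well above background was 12.9. By this measure the 4 h level of Gm32650 exceeded the 0 h level at least 11.485-fold and the 16 h level at least 9.33-fold. The 8 h level exceeded the 0 h level at least 5.16-fold. Normexp background correction was run on the median signal and local background of each spot in place of the processed intensity. It adds an offset to each spot and shrinks the differences of dim probes. With it the log2 difference of Gm32650 between 4 h and 0 h was 1.87 in place of 5.76.

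Gm32650 has 3 other probes on the array, for other transcripts of the gene, and all were well above background at each time point. The probe of XR_880080.1 had intensities of 58.4, 203, 98.4 and 33.7 in order of time, so it too was highest at 4 h and lower again at 8 h. Against unstimulated cells it differed on the log2 scale by 1.87 after 4 h, 0.86 after 8 h and -0.52 after 16 h. The probes of XR_880078.1 and XR_880077.1, which were brighter at 0 h with 269.5 and 366, had log2 differences of 0.89 and 0.99 at 4 h. At 8 h that of XR_880078.1 was 0.80, below its 4 h value by less than the scanner error of 0.10, and that of XR_880077.1 was 0.19. At 16 h they were -0.25 and 0.26. The other probes of the gene were thus all higher at 4 h than at 0 h, and they differed at 8 h, where XR_880078.1 was about as high as at 4 h.

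For 2 other genes the remaining probe had no such difference. The probe of Gm29897 that met the conditions (XR_388187.2) had spot intensities of 3.23 and 7.49 before stimulation, 74.3 and 73.4 after 4 h, 11.49 and 14.5 after 8 h, and 7.95 and 7.54 after 16 h. The 4 h level exceeded the 0 h level at least 6.02-fold. The other probe of Gm29897 (XR_388188.2) lay at 38.5, 37.2, 45.0 and 28.4, with a log2 difference between 4 h and 0 h of 0.03. In Gm42338 the probe of XR_881551.1 had intensities of 3.14, 27.3, 3.95 and 3.65 at 0, 4, 8 and 16 h, at least 2.22-fold higher at 4 h than at 0 h. The other probe of Gm42338 (XR_881552.1) measured 70.3, 67.0, 48.3 and 32.3, with a log2 difference of 0.01 between 4 h and 0 h. It was lowest at 16 h. Which of the 2 probes stands for the gene cannot be told from 1 array per time point.

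**Figure D1:**
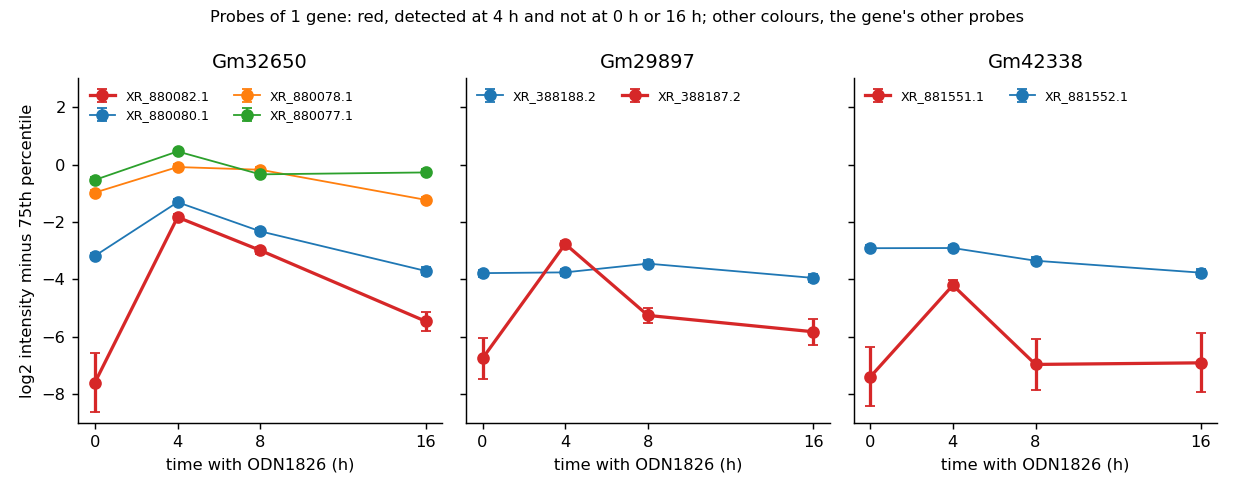
Level (log2 intensity relative to the array's 75th percentile) against hours with ODN1826 for every probe of Gm32650, Gm29897 and Gm42338. Bars are the scanner's error of the probe mean. Red points are the probes detected at 4 h and not at 0 h or 16 h. The other probes of Gm32650 were higher at 4 h than at 0 h too, by 0.89 to 1.87 on the log2 scale, while those of Gm29897 and Gm42338 differed by 0.03 and 0.01.

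Gm34571 was measured by the probes of XR_866912.1 and XR_866913.1, which are transcripts of 1 gene and may share sequence. The first had spot intensities of 2.66 and 2.59 before stimulation, 29.4 and 34.5 after 4 h, 5.84 and 4.31 after 8 h, and 3.04 and 6.90 after 16 h. The second lay at 3.04 and 2.85, 24.4 and 26.9, 6.60 and 4.60, and 3.46 and 5.07 at the same times. Both probes of Gm34571 were above background at 4 h alone, at least 2.59-fold and 2.09-fold higher than at 0 h. Gm33481, beside Ifng, had spots of 2.78 and 2.57, 40.8 and 41.0, 3.27 and 7.14, and 3.22 and 4.47 in the same order. Its 4 h level exceeded that before stimulation at least 3.33-fold and that at 8 h at least 3.27-fold. Gm40128, at least 2.71-fold higher at 4 h than at 0 h, and Gm41393, at least 1.96-fold, had no spot above background at 8 h either. Gm34450 was still well above background at 8 h, with intensities of 6.57, 27.7, 15.6 and 6.83 at 0, 4, 8 and 16 h, and so was the clone matched to 4933424G06Rik, with 7.14, 35.7, 25.2 and 7.07. The clones matched to Fgf18, a fibroblast growth factor, and Abca12, a lipid transporter, have 1 spot each. Their intensities at 0, 4, 8 and 16 h were 4.16, 22.4, 13.8 and 11.3 for Fgf18 and 2.56, 14.7, 18.0 and 8.44 for Abca12, so that the last was higher at 8 h than at 4 h.

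Among lncRNA probes with no gene, the brightest at 4 h was NONMMUT058485. Its single spot measured 10.97, 394, 43.3 and 7.67 in order of time, at least a 32.1-fold excess of the 4 h over the 0 h level. XR_871851.1 had spots of 3.52 and 6.44 before stimulation, 232 and 227 after 4 h, 20.1 and 23.6 after 8 h, and 6.06 and 14.1 after 16 h, with a 4 h level at least 18.7-fold over that at 0 h. Both were still detected at 8 h, at least 3.599-fold and 1.81-fold over their 0 h levels. The RIKEN clone B020041A18 lay at 8.43, 198, 48.1 and 11.3, and the clone B930083L10 at 8.26, 134, 3.67 and 2.84. The last was not well above background at 8 h, where it was at least 10.7-fold below its 4 h level. Of the mRNA probes, A_51_P462192 was the brightest, with spots of 2.58 and 2.60 before stimulation, 1141 and 1167 after 4 h, 314 and 287 after 8 h, and 11.2 and 13.5 after 16 h. Over unstimulated cells it was at least 94.0-fold higher after 4 h and at least 24.9-fold higher after 8 h. It alone among the 206 exceeded the 75th percentile of its array. A_51_P488991 lay at 2.58 and 3.06, 276 and 299, 45.1 and 40.9, and 2.72 and 3.27 in order of time, at least 23.4-fold over the 0 h level after 4 h and 3.57-fold after 8 h.

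These bright transcripts were not typical of the rest. The level at 4 h of the 141 lncRNA probes ran from -5.13 to -0.36 with a median of -4.22, and that of the 65 mRNA probes from -4.98 to 1.20 with a median of -4.07. The medians correspond to intensities of 27.1 and 29.9 and lie at the 33.3rd and 34.6th percentile of all probes at 4 h. At 0 h the median intensity was 4.07 for lncRNA and 3.20 for mRNA probes, below the lowest intensity of a probe well above background, which was 12.9. Measured as they stand, lncRNA probes had a median log2 difference of 2.78 between 4 h and 0 h and mRNA probes one of 3.13. Among all probes, 1.2% of lncRNA and 1.52% of mRNA probes exceeded the limit of 2, which the choice itself used. Taken as bounds, the median was at least 2.20-fold for lncRNA and at least 2.44-fold for mRNA. At least 4-fold higher at 4 h than at 0 h were 22 of the 141 and 22 of the 65, or 15.6% and 33.8%. All probes of these classes gave 0.72% and 1.16%. Against 16 h, 63 lncRNA and 31 mRNA probes, or 44.7% and 47.7%, were at least 2-fold higher at 4 h. All probes gave 5.60% and 7.33%, and the choice itself used the 0 h, 4 h and 16 h arrays.

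The limit of 2 cut through a continuous range. Of 447 probes with all spots well above background at 4 h and none at 0 h and 16 h, 206 exceeded it. For lncRNA the clones A630013H09 and E030038N05 lay just inside, at 2.0002 and 2.0004, and XR_396813.2 and the clone E330010H09 lay just outside, both at 1.96. For mRNA the nearest probes lay at 2.04 and 2.04 inside and at 1.9991 and 1.96 outside. With normexp background correction 3 lncRNA and 4 mRNA probes remained over the limit, and the median log2 differences of the 141 and 65 probes were 0.56 and 0.66.

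**Figure D2:**
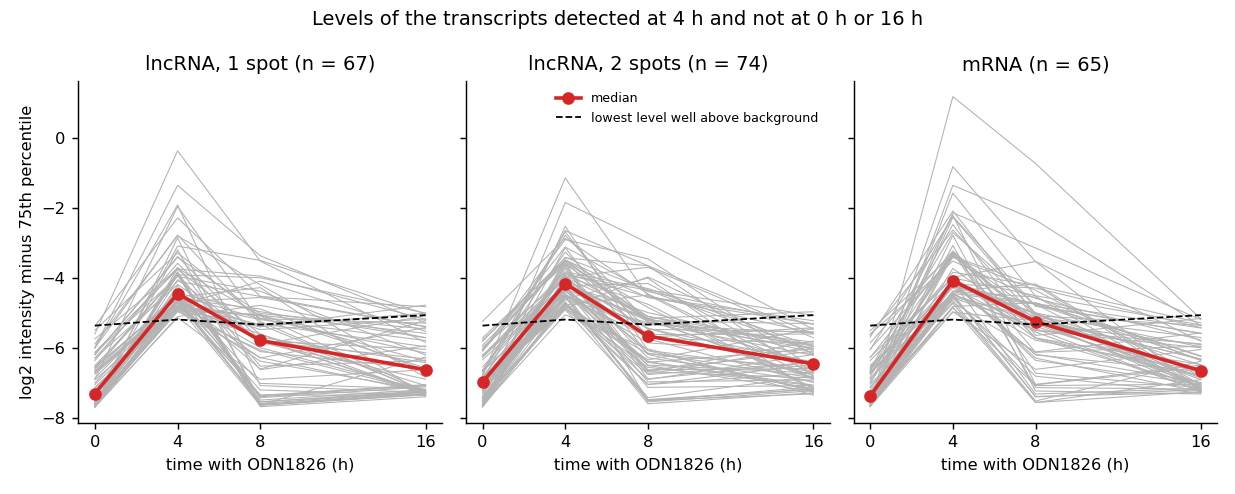
Level (log2 intensity relative to the array's 75th percentile) of each probe detected at 4 h and not at 0 h or 16 h, against hours with ODN1826. Grey lines are probes, the red line is the median and the dashed line is the lowest level of a probe well above background on each array. The medians at 4 h lay at -4.44, -4.16 and -4.07 in the panels from left to right and nearer to the dashed line than to the 75th percentile at 0.

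lncRNA probes made up 68.4% of the 206 (exact 95% interval 61.6 to 74.7%, which covers counting error only) and 57936 of the 96963 probes examined. As a share of the class, 0.243% of lncRNA probes (0.205 to 0.287%) and 0.167% of mRNA probes (0.129 to 0.212%) met the conditions. All mRNA probes have 2 spots, whereas 19325 of the lncRNA probes have 1, and 1 spot meets the condition on all spots more easily. Among lncRNA probes with 1 spot 67, or 0.347%, were taken, and among those with 2 spots 74, or 0.192% (0.151 to 0.241%). Compared at 2 spots each, the interval of the lncRNA probes overlapped that of the mRNA probes, and the difference was not tested. NONCODE probes were taken at 0.215%, predicted RefSeq transcripts at 0.255% and RIKEN clones at 0.300%.

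The spots of a probe give the only repeat measurement on these arrays. Among the probes detected at 4 h with 2 spots, the median log2 gap between the spots at 4 h was 0.20 for 74 lncRNA and 0.17 for 65 mRNA probes, and the widest was 0.87. Requiring both spots selects for this agreement. When 1 spot of every 2-spot probe was used to choose and the other was read, a comparison added after the data were seen, 147 or 162 lncRNA probes were chosen according to the spot used. The other spot was well above background at 4 h in 60.5% and 53.1% of them, and it met all the conditions in 35.4% and 32.1%. Its median log2 difference between 4 h and 0 h was 1.64 and 1.67, against 2.88 and 2.81 in the spot that chose. For mRNA, 116 or 148 probes were chosen, the other spot was well above background in 65.5% and 54.7% and met all the conditions in 49.1% and 38.5%, and its median difference was 2.39 and 1.85. The 67 lncRNA probes with 1 spot have no such second reading.

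At 8 h, most of the transcripts were lower than at 4 h, but many were still detected. All spots were still well above background at 8 h for 41 of the 141 lncRNA probes, or 29.1% (21.7 to 37.3%), and for 23 of the 65 mRNA probes, or 35.4% (23.9 to 48.2%). Among all probes that were dim at 0 h and 16 h, this held for 2.87% of lncRNA and 1.7% of mRNA probes. The share was 31.3% for lncRNA probes with 1 spot and 27.0% for those with 2 spots, against 6.11% and 1.29% of all dim probes of the same kind. Few dim probes had all spots so called at 4 h, 345 of 14427 lncRNA and 102 of 6427 mRNA probes, whereas the choice required it. The sets thus differ at 4 h by the choice itself. The call well above background was made at 4 h alone for 90 lncRNA and 29 mRNA probes, or 63.8% and 44.6%. At 8 h, 10 lncRNA and 13 mRNA probes had 1 of 2 spots so called. Of all probes dim at 0 h and 16 h, 93.1% of lncRNA and 92.8% of mRNA probes had no spot so called at 8 h. For all probes of these classes it was 27.0% and 17.8%. A spot without the call can still hold signal. The intervals of the classes overlapped at 8 h, and no test was made between them.

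**Figure D3:**
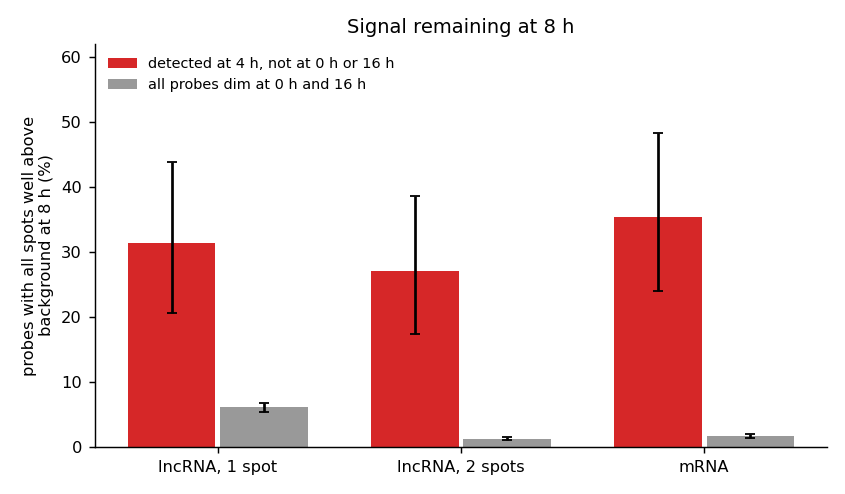
Percentage of probes with all spots well above background at 8 h, for lncRNA probes with 1 or 2 spots and for mRNA probes. Red bars are the probes detected at 4 h and not at 0 h or 16 h. Grey bars are all probes dim at 0 h and 16 h, whatever their call at 4 h. Error bars are exact 95% intervals. The red bars stood at 31.3%, 27.0% and 35.4% and the grey bars at 6.11%, 1.29% and 1.7%.

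The level at 8 h ran from -7.68 to -2.99 in the lncRNA probes, with a median of -5.72, and from -7.56 to -0.72 in the mRNA probes, with a median of -5.24. Against 4 h the median log2 difference was -1.65 for lncRNA and -1.75 for mRNA probes, against -0.02 and -0.01 for all probes of these classes. More than 2-fold lower at 8 h than at 4 h were 102 lncRNA probes, or 72.3%, and 44 mRNA probes, or 67.7%, where all probes gave 5.03% and 4.26%. Many of these 8 h levels are only limits, and as bounds 63 lncRNA and 32 mRNA probes were at least 2-fold lower, against 3.3% and 3.2% of all probes. Since the probes were chosen for a high 4 h and a low 0 h and 16 h, some of this difference follows from the choice. None was more than 2-fold higher at 8 h than at 4 h, against 4.86% of all lncRNA and 4.10% of all mRNA probes. By less, 9 lncRNA and 3 mRNA probes, or 6.38% and 4.62%, were higher at 8 h. Of all probes, 48.0% and 49.3% were higher at 8 h by any amount, and of the probes dim at 0 h and 16 h, 30.3% and 30.6%. Compared with 0 h, which the choice used, 77 lncRNA probes, or 54.6%, and 43 mRNA probes, or 66.2%, measured more than 2-fold higher at 8 h. Of all probes, 6.91% and 6.78% did so, and of the probes dim at 0 h and 16 h, 8.94% and 7.62%. Their median log2 differences between 8 h and 0 h were 1.07 and 1.58. As bounds, 19 of the 41 lncRNA and 10 of the 23 mRNA probes detected at 8 h were at least 2-fold higher there than at 0 h. No such count was made over all probes, so these counts are a description only. At 16 h, where no spot was well above background, 39 lncRNA and 15 mRNA probes still measured more than 2-fold over 0 h, against 8.96% and 10.5% of all probes, and such values carry no order. In 1 of them, the 1-spot clone A430025F11, named after its values were seen, the 16 h level of -4.77 was above the 4 h level of -4.89, although the spot was called well above background at 4 h alone.

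The 2-spot lncRNA probes with the lowest measured log2 value of 8 h minus 4 h were NONMMUT007572, NONMMUT026872 and XR_871851.1, of which the last was detected at 8 h. The others have only a limit there, so these values carry no order. NONMMUT007572 had spots of 41.9 and 44.9 at 4 h, and 2.92 and 2.499 after 8 h, at least 3.46-fold lower. NONMMUT026872 had 91.1 and 85.0 at 4 h, and 9.95 and 5.41 after 8 h, at least 7.03-fold lower. At the other end, NONMMUT070453 had spots of 19.1 and 15.5 at 4 h, and 33.1 and 30.2 after 8 h, a log2 difference of 0.91. NONMMUT007588, at 20.7 and 21.0 against 29.7 and 32.2, and XR_378865.2, at 16.2 and 21.1 against 24.8 and 19.6, had means higher at 8 h by 0.60 and 0.29. Both spots were higher at 8 h in the NONCODE probes and 1 of 2 in XR_378865.2, and none of the 3 was well above background at 16 h. Among the mRNA probes the range between 8 h and 4 h ran from -4.85 to 0.45.

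Probes that were brighter at 4 h were more often still detected at 8 h. Of the 70 lncRNA probes over the class median at 4 h, 29, or 41.4% (29.8 to 53.8%), had all spots above background at 8 h, and of the other 71 it was 12, or 16.9% (9.05 to 27.7%). For mRNA the numbers were 16 of 32 (31.9 to 68.1%) and 7 of 33, or 21.2% (8.98 to 38.9%), whose intervals overlapped. The probes without any spot above background at 8 h were at least 2-fold lower than at 4 h in 41 of 90 lncRNA and 17 of 29 mRNA probes, and for the rest the difference could not be sized at this signal. Their 4 h level was part of the choice, and no such count was made over all probes without the call at 8 h.

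**Figure D4:**
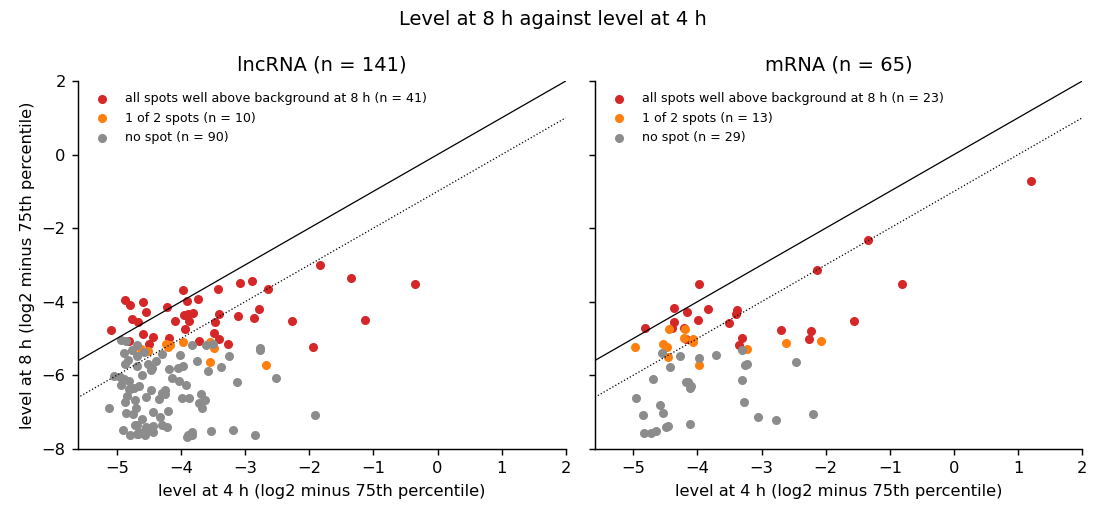
Level at 8 h against level at 4 h (log2 intensity relative to the array's 75th percentile) for each lncRNA and mRNA probe detected at 4 h and not at 0 h or 16 h. The solid line marks equal levels, the dotted line a 2-fold lower level at 8 h, and colours give the spots well above background at 8 h. Of the points, 102 lncRNA and 44 mRNA probes lie below the dotted line, and 9 and 3 lie above the solid one.

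To set the number of these transcripts beside that of another time point, the same conditions were applied with 4 h and 8 h exchanged. They gave 153 probes. Among probes with 2 spots there were fewer at 8 h than at 4 h, 32 against 74 for lncRNA and 35 against 65 for mRNA. Among lncRNA probes with 1 spot there were more at 8 h, 86 against 67. The probes that met both sets of conditions numbered 13 for 2-spot lncRNA, 16 for mRNA and 11 for 1-spot lncRNA, and both sets share the 0 h and 16 h arrays. The mRNA probes were also brighter when taken at 4 h, with a median intensity of 29.9 against 22.0 at 8 h, and the medians of 2-spot lncRNA probes were 28.2 and 23.4. Those of 1-spot lncRNA probes were 23.2 and 21.5. The lowest intensity of a probe well above background was also higher at 4 h, 13.9 against 12.3 at 8 h. Each time point is 1 array, so a difference between times and a difference between cultures or labelling reactions cannot be told apart.

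**Figure D5:**
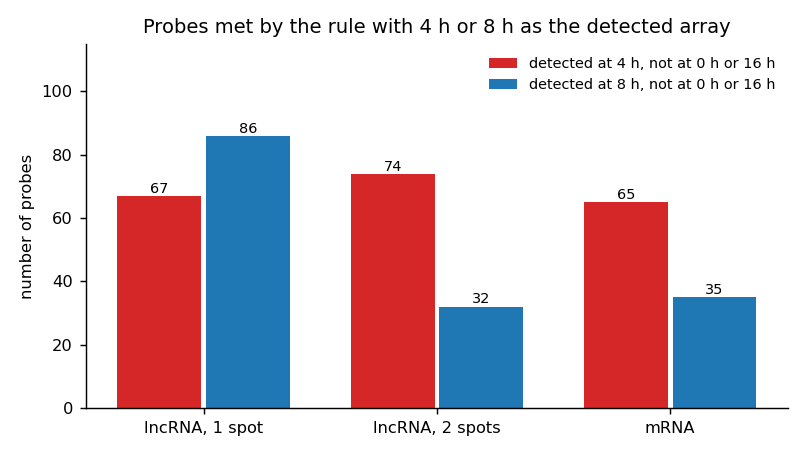
Number of probes with all spots well above background at 4 h (red) or at 8 h (blue), no spot at 0 h and 16 h, and a level over 0 h by more than 2 in log2 units, shown separately for mRNA probes and for lncRNA probes with 1 or 2 spots. Probes with 2 spots were more numerous at 4 h, 74 against 32 and 65 against 35, and lncRNA probes with 1 spot were more numerous at 8 h, 86 against 67.

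The authors' deposited normalized table holds 71505 probes and none of these 206. It does hold all 5 of the other probes of the named genes. Why the 206 are absent was not examined. None had a spot marked as an outlier on any array, and no spot was saturated.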

How the data were processed

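Each of the 4 times with ODN1826 had 1 Agilent array with 1 dye. The authors obtained the deposited spot intensity values in Feature Extraction (11.5.1.1 in the scanner headers, 10.7 in the submitters' processing notes), with the background subtracted and spatial trends removed within each array. The authors also deposited log2 values normalized in GeneSpring, whose scale is that of the averaged spots after subtraction of 9.05, 8.98, 8.95 or 8.78 by array. They hold none of the 206 probes, and no value was taken from them.

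From the intensities, the mean log2 value over a probe's spots was taken, outliers included, and each array was set relative to its 75th percentile over all probes (intensities of 531, 503, 494 and 440). The calls well above background are those of Feature Extraction. Shares carry exact 95% binomial intervals, which cover counting error only. Since no time point has a second array, differences were not tested, p-values are absent, and precision is limited by how few arrays there are. The rule was also run on simulated arrays in which dim probes were given rises well above its limit. That run does not show how the rule behaves for probes near the limit.

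Predicted RefSeq transcripts were matched by accession without version (3816 of 12146 probes) and RIKEN clones by clone name with the ending Rik (1214 of 15675) to the RefSeq table of GRCm38.p6. The scanner headers name mm9, so that table gave names, neighbours and promoter windows in its own build. Named probes were matched genes, the brightest 5 of a class, the 3 highest and 3 lowest by 8 h minus 4 h among 2-spot probes, and those nearest the limit. At most 2 unnamed mRNA probes are printed. The transcripts, lists and rules were chosen with earlier results of these data known. Alternatives were quantile normalization, the percentile over detected probes, normexp with an offset of 50, leaving out outlier spots and 1 spot in place of all. Others were limits of 1 and 3, probes with 2 spots, and, chosen after seeing the data, the 0 h value at its bound. Normexp was run on median spot signals and local backgrounds in place of the processed intensities. Python 3.11.15, numpy 2.4.6, pandas 2.3.3, scipy 1.17.1, matplotlib 3.10.9, R 4.3.3 and limma 3.58.1 were used.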

Additional observations from a re-analysis of the deposited data

Results flagged for a closer look

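The curated noncoding transcripts of RefSeq were not part of the comparisons, and 2 of their 873 probes had the same pattern, with a signal well above background at 4 h and none at 0 h and 16 h. The probe of Gm20125 (NR_038020.1) had intensities of 5.77, 68.6, 7.64 and 8.99 at 0, 4, 8 and 16 h. The probe of 1700012H19Rik (NR_130164.1) had intensities of 2.58, 38.0, 21.4 and 3.18. Each has 1 spot and no second reading on its array.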

How the results depend on the processing

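Of 99 values computed under 9 alternatives, 16 could not change, since none of the 206 probes has an outlier spot and every mRNA probe has 2 spots. Of the other 83, 54 stayed within 1.5 times the count or within the interval of the value and 29 moved, and no median changed sign. Nothing moved with the percentile over detected probes. With quantile normalization the median log2 difference between 8 h and 0 h of the lncRNA probes moved to 0.85, and 131 lncRNA and 63 mRNA probes were taken, all of them among the 141 and 65.

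Normexp with an offset of 50, which pulls dim probes together, left 3 lncRNA and 4 mRNA probes, a lncRNA share of 42.9%, with 100% of either class well above background at 8 h, 0.0% of the lncRNA probes over 2-fold above 0 h at 8 h and a median of 0.63 there. With the 0 h value at its bound, chosen after seeing the data, 22 lncRNA and 22 mRNA probes were taken, a lncRNA share of 50%. Of these lncRNA probes 59.1% were above background and 63.6% over 2-fold above 0 h at 8 h, with medians of 1.55 against 0 h and -2.37 against 4 h, and the mRNA median against 4 h was -2.54. A limit of 1 gave 265 lncRNA probes, of which 43.4% were over 2-fold above 0 h at 8 h, with medians of 0.84 against 0 h and -1.22 against 4 h. A limit of 3 gave 51 lncRNA and 38 mRNA probes, a lncRNA share of 57.3% and a lncRNA median of -2.64 against 4 h. With 1 spot in place of all at 4 h, 23.7% of the mRNA probes were above background and 49.5% over 2-fold above 0 h at 8 h, with a median of 1.00. With 2-spot probes alone there were 74 lncRNA probes, a share of 53.2%.

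The authors' deposited values gave nothing, since none of the 206 probes is among them. No paired analysis was possible because each time point has 1 array. Most of the probes lie near the background limit at 4 h, which limits what their differences can show.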
